A study of Mus musculus with 22 samples.

Results

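The 9 genes described here handle thyroid hormone and were measured in mouse striatum and white adipose tissue (WAT). They comprise the deiodinase genes Dio1, Dio2 and Dio3, the transporter genes Slc16a10, Slco1c1, Slc7a5 and Slc7a8, Crym, which encodes the cytosolic hormone-binding protein mu-crystallin, and Ttr, which encodes the carrier protein transthyretin. They were taken by symbol from the count table of each tissue, and all 9 genes were rows of both tables, among 55341 rows for striatum and 47643 for WAT. A gene was tested in a tissue where its mean normalised count (the count scaled to a common library size within the tissue) exceeded 10, which left 8 of the 9 genes in striatum and 5 of the 9 in WAT. Dio1 was below this mean in both tissues, and Dio3, Slco1c1 and Ttr were below it in WAT.

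The thyroid secretes mostly the prohormone T4, and the nuclear receptors bind T3. The type 2 deiodinase converts T4 into T3 inside the cell, the type 3 deiodinase inactivates both hormones, and the type 1 enzyme, a liver and kidney enzyme in the main, can do either. The hormones cross membranes through transporters, and Slco1c1 is a T4 transporter of brain capillaries and astrocytes. In the brain Dio2 is mainly a gene of astrocytes and tanycytes and Dio3 one of neurons. In fat Dio2 is a gene of thermogenic adipocytes that responds to adrenergic signalling through cyclic AMP.

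All libraries came from animals labelled as wild-type C57BL/6J males aged 8 weeks. The control libraries of both tissues (2 from striatum, 4 from WAT) were labelled as hypothyroid after 2 weeks of propylthiouracil (PTU), a blocker of thyroid hormone synthesis. The other libraries were labelled as treated with thyroid hormone (TH) and sampled after 12 h or 24 h in striatum and after 6 h or 24 h in WAT, with 4 libraries each. TH was a single intraperitoneal injection of T3 and T4 according to the study's data overview, which lists PTU in the food for WAT and no hypothyroidism procedure for striatum, and the sources used here do not state if PTU was given to the TH-treated animals of the striatum groups. Nothing says that replicates were separate animals, and p-values therefore measure the spread between these samples, which may be technical.

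Libraries held between 8.04 and 10.1 M counts in striatum and between 17.3 and 26.9 M in WAT. Hr and Klf9, which are known to respond to TH, were called higher than in PTU at both times in both tissues. In striatum, over 10 fits that left out 1 library each, Hr was called in 9 at either time (not without PTU replicate 3) and Klf9 in 2 at 12 h and 8 at 24 h. Replicate 2 of the striatum 24 h group stood apart, with a summed normalised count of 9 striatal projection neuron genes of 2860, against 21700 to 57700 in the other striatum libraries. Its summed count of 6 cortical excitatory neuron genes was 22600, against 3780 to 14600. Although every animal was labelled male, 6 of the 10 striatum libraries (PTU replicate 6, 12 h replicate 1 and all 4 at 24 h) held at most 7 counts of Y-linked genes and at least 22100 normalised counts of Xist. WAT libraries carried the 7 white adipocyte markers, summing to between 260000 and 521000, and skeletal muscle markers that varied from 813 to 438000. The 6 muscle markers summed to 1790 to 438000 in PTU (median 89900), 813 to 83200 at 6 h (5800) and 32900 to 241000 at 24 h (110000). None of them was called, and the part of muscle in the WAT differences was not tested.

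Per length of merged exons, the striatum of PTU animals held Dio2 at the highest level of the 9 genes, at 59.6 CPM per kb ± 4.33 (SD, n = 2). Crym followed at 38.2 ± 4.60. Slco1c1 at 32.0 ± 1.51 and Slc7a5 at 30.7 ± 1.17 were neighbours whose libraries overlapped, and Slc7a8 lay below them at 18.3 ± 0.840. Ttr at 2.06 ± 0.148 and Slc16a10 at 0.435 ± 0.0698 were low. Dio3 was at 0.0518, from 2 reads in 1 of the 2 libraries, and Dio1 had 0 reads in all 10 striatum libraries, which allows up to 3 counts per library. The order was another one in WAT. There Slc16a10 led the PTU group at 3.08 CPM per kb ± 0.340 (SD, n = 4), Slc7a8 followed at 2.25 ± 0.373 with no overlap of the libraries, and Slc7a5 came next at 0.807 ± 0.319. Ttr at 0.227 ± 0.317 and Crym at 0.224 ± 0.123 overlapped, and Dio2 at 0.0770 ± 0.0411 lay below every Crym library but overlapped with Ttr. Slco1c1 was at 0.0159 ± 0.0110 and Dio1 at 0.00533, and Dio3 had no read in the 4 libraries. After TH, Dio2 of WAT stood at 3.22 CPM per kb ± 0.742 at 6 h, the highest mean of the 9 genes in that group though overlapping with Slc16a10 at 2.66 ± 0.232, and at 3.20 ± 2.93 at 24 h. The 2 tables differed in their rows and their annotation is not known, so levels were not tested between tissues.

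**Figure D1:**
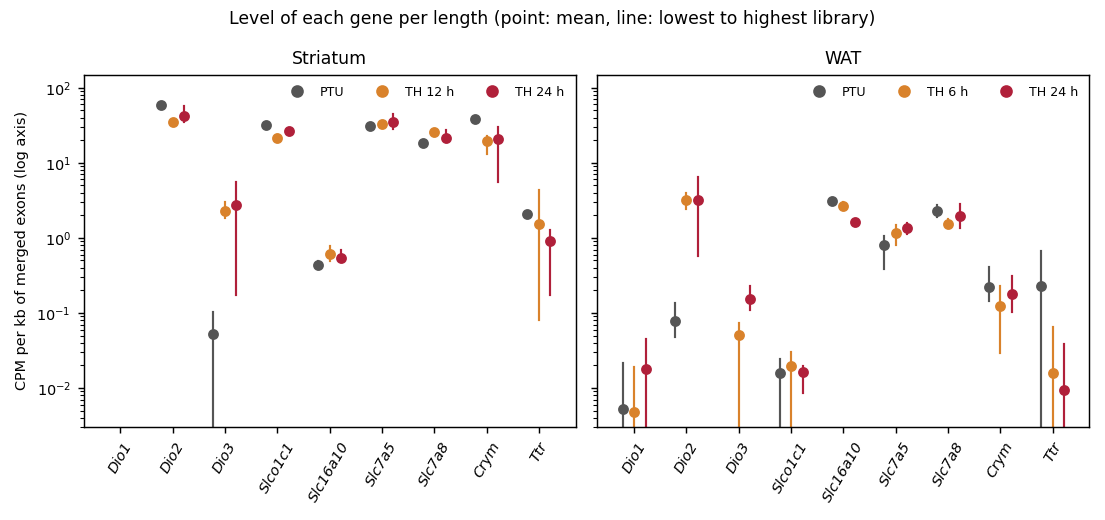
Level of each gene in CPM per kb of merged exons (log axis), as the group mean (point) and the lowest to highest library (line, drawn down to the axis where a library is at 0), for the 3 groups of striatum (left) and of WAT (right); groups with no read are not drawn. In PTU animals Dio2 leads in striatum at 59.6 and Slc16a10 leads in WAT at 3.08, while Dio2 of WAT lies at 0.0770 before TH and at 3.22 and 3.20 after it.

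Dio2 and Dio3 both lie on chromosome 12 in GRCm38. Dio2 spans 90724552 to 90738438 on the minus strand, and 100 bases of its exons overlap Gm26512 on the opposite strand. Dio3 spans 110279068 to 110281097 on the plus strand, and Dio3os starts just upstream of it on the minus strand, at 110278172. As the genes with the widest differences between PTU and TH, their RefSeq upstream sequences (GRCm38.p6) are given below, for Dio2 chr12:90739039-90739288 on the minus strand and for Dio3 chr12:110278980-110279067 on the plus strand. Capitals mark TGACGTCA, the palindromic cyclic AMP response element.
Dio2: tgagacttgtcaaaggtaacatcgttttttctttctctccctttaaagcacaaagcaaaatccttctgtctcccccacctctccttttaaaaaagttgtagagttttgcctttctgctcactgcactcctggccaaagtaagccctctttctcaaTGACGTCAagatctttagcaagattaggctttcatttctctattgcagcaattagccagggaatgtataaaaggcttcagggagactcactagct
Dio3: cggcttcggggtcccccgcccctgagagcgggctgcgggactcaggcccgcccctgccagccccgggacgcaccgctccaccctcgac
The Dio2 sequence ends at the RefSeq start, 600 bases upstream of the GENCODE M21 start, and the element begins 95 bases before its end. The Dio3 sequence ends at the GENCODE start, which lies 162 bases upstream of the RefSeq start. RefSeq promoters (250 bases before to 50 after the start) were found for 7 of the 10 genes looked up, which were the 9 genes and Dio3os. TGACGTCA was in the promoter of Dio2 alone among these 7, and in 1.79% of 32817 mouse promoters of the same length. The half-site AGGTCA, on either strand, was in none of the 7 and in 16.3% of all promoters. A direct repeat of that half-site spaced by 4 bases, which contains it, was in none of the 7 and in 0.0152% of all. A match describes these letters only.

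In striatum at 12 h after TH, Slco1c1 was the only gene of the 8 tested that was called (edgeR quasi-likelihood F test, Benjamini-Hochberg adjusted p under 0.05), where 0.960% of the 15827 genes tested were called and 0.733% and 0.227% were called higher and lower. The libraries of 7 of the 8 genes did not overlap between 12 h and PTU, a pattern shown by 36.4% of all genes tested. At 24 h none of the 8 was called, against 0.348% of all genes (0.316% higher and 0.0316% lower), and 4 of the 8 did not overlap, against 18.2%. Without TH 24 h replicate 2, which enters the estimate of the spread, 5 of the 8 were called at 12 h (Dio2, Dio3, Slco1c1, Slc7a8 and Crym, with 7.93% of all genes) and 2 at 24 h (Dio2 and Dio3, with 0.725%). The cortical marker sum was 6870 and 3780 in PTU, 9140 to 14600 at 12 h, with no overlap, and 5470 to 22600 at 24 h, and 0 of the 6 markers were called. The part of cortical tissue in the 12 h differences was not tested.

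Dio2 had 3090.5 and 3425.5 normalised counts in the PTU striatum. At 12 h the 4 libraries held 1875, 1894, 2043 and 1833. At 24 h they held 1886, 3130.0, 1913 and 2243. All 12 h libraries lay below both PTU libraries, and at 24 h only replicate 2, the library with few projection neuron counts, reached the PTU range. The difference from PTU was -0.77 ± 0.18 (log2, SE) at 12 h with an adjusted p of 0.0660, and -0.51 ± 0.18 at 24 h with an adjusted p of 0.387. Without replicate 2 of the 24 h group the values were -0.71 at 24 h (adjusted p = 0.0120, edgeR) and an adjusted p of 0.00445 at 12 h. Summed counts of 7 astrocyte markers ran from 49000 to 55500 in PTU, 45900 to 51500 at 12 h and 60700 to 75800 at 24 h, and 0 of the 7 was called at either time. The median log2 change of the 7 against PTU was -0.07 at 12 h and 0.01 at 24 h. In bulk RNA, fewer cells of a type and less RNA per cell cannot be told apart.

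Dio3, the inactivating enzyme, was almost unread in the PTU striatum, with 0 and 2 counts. The 12 h libraries had 61, 42, 43 and 39 counts, and the 24 h libraries 62, 3, 90 and 38. Every TH library therefore exceeded both PTU libraries, although replicate 2 at 24 h did so by 1 count. From the summed counts, Dio3 was 42.5-fold higher at 12 h (95% interval 11.6 to 353) and 50.6-fold higher at 24 h (13.8 to 420), with intervals that cover counting error only. Both ratios rest on the 2 counts of PTU replicate 6. When 1 library was left out, the fitted log2 change ran from 4.36 to 8.44 at 12 h and from 4.61 to 8.70 at 24 h, and its highest values, without PTU replicate 6, depend on the prior count because the control is then at 0. The test did not pass its threshold with every library in the fit (adjusted p = 0.0870 at 12 h and 0.171 at 24 h, edgeR). It passed at 12 h when only these 2 groups were fitted (adjusted p = 0.00541, with 9.05% of all genes called). The same fit of 24 h and PTU called 0 of 15691 genes, and Dio3 had an adjusted p of 0.496. With no filter on low counts the adjusted p was 0.0310 at 12 h and 0.0311 at 24 h, with 1.01% and 0.341% of all genes called. DESeq2 gave Dio3 no adjusted p at 12 h (5.43% of all genes called) and one of 0.00145 at 24 h (1.28% called).

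Dio3os, the non-coding RNA that starts beside Dio3 on the other strand, followed a like course. It had no count in either PTU library, 11, 16, 28 and 17 counts at 12 h and 20, 1, 26 and 20 at 24 h. Against a floor of 3 counts per library it was at least 5.47-fold higher at 12 h (adjusted p = 0.0853, edgeR) and at least 5.87-fold higher at 24 h (adjusted p = 0.186). The strand setting of the counting was not given in the sources used here, and the 2 genes do not overlap in GENCODE M21.

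The level of Dio3 after TH went with the projection neuron markers of the library. At 24 h the marker sum was 53000, 2860, 57700 and 26700 in replicates 1 to 4, beside Dio3 normalised counts of 60.6, 3.36, 107 and 38.1. At 12 h the sum was 35300 in replicate 1, which had 57.6 normalised counts of Dio3, and 21700 to 22700 in the other three, which had 35.5 to 41.1. The PTU libraries had sums of 37900 and 55000 and at most 1.98 normalised counts of Dio3. None of the 9 markers was called at either time by edgeR. Within the 6 libraries without Y-linked counts Dio3 had 1.98 in PTU, 57.6 at 12 h and 3.36 to 107 at 24 h, and within the 4 libraries with Y-linked counts it had 0 in PTU and 35.5 to 41.1 at 12 h.

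**Figure D2:**
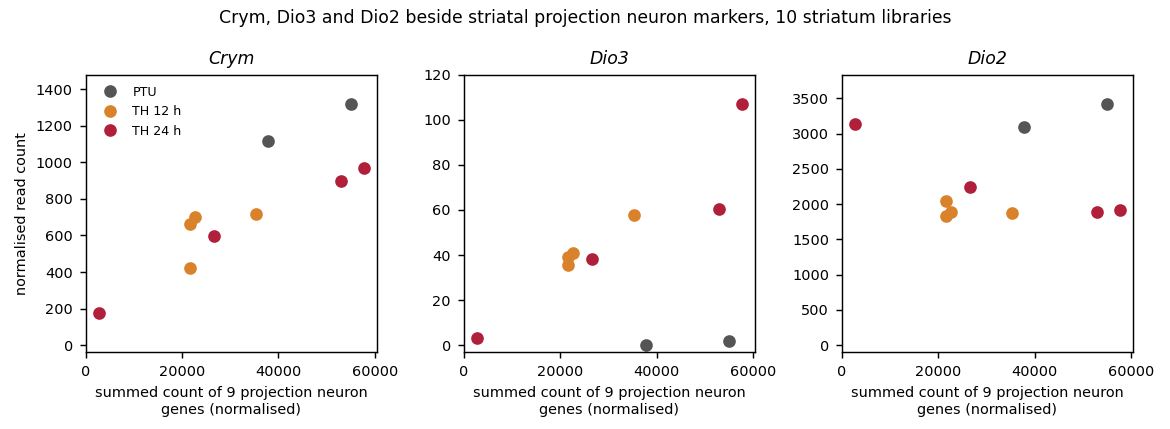
Normalised read count of Crym, Dio3 and Dio2 (vertical axes) against the summed normalised count of 9 striatal projection neuron genes (horizontal axis) in the 10 striatum libraries, coloured by group. Both PTU libraries lie at the bottom of the Dio3 panel, at 0 and 1.98, with marker sums of 37900 and 55000, and the leftmost point of each panel is TH 24 h replicate 2 at 2860.

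Slco1c1, the T4 transporter, fell at 12 h. The PTU libraries had 1510.1 and 1614 normalised counts and the 12 h libraries 1089, 987, 1149 and 1002. The 2 groups were separated by more than the range of either. The difference was -0.56 ± 0.11 (log2, SE), with an adjusted p of 0.0378. This call was kept in 4 of the 10 fits that left out 1 library, with adjusted p from 0.0134 to 0.277 over the 10. It was lost without PTU replicate 3 (0.277), PTU replicate 6 (0.239) or any one of the 12 h libraries (0.0627 to 0.115), and with a term for the presence of Y-linked counts (0.0744). At 24 h Slco1c1 had 1409, 1281, 1378 and 1151 normalised counts, between the 2 other groups, and differed from PTU by -0.26 ± 0.11 with an adjusted p of 0.466. The 8 brain endothelium markers summed to 2890 to 3060 in PTU, 2470 to 2900 at 12 h and 2810 to 3510 at 24 h, with 0 called.

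The amino acid transporters Slc7a5 and Slc7a8, light chains that pair with Slc3a2 and also carry T3 and T4, did not pass the test in striatum with every library in the fit. Slc7a8 had 891 and 835 normalised counts in PTU, 1081, 1287, 1301 and 1171 at 12 h, and 883, 1270.2, 888 and 1031 at 24 h. The 12 h libraries all lay above PTU, with a difference of 0.49 ± 0.15 (log2, SE) and an adjusted p of 0.115 (0.0259 without 24 h replicate 2), and the 24 h libraries overlapped with PTU. The 3 highest Slc7a8 counts were in 12 h replicates 2 and 3 and 24 h replicate 2, which also had the 3 highest cortical sums, 14500, 14600 and 22600. Slc7a5 had 1099 and 1042 in PTU, 1171, 1152, 1116 and 1141 at 12 h and 1170.1, 1176, 980 and 1539 at 24 h. Its difference was 0.10 ± 0.15 at 12 h and 0.18 ± 0.15 at 24 h, with adjusted p of 0.748 and 0.724. Slc16a10, a transporter of aromatic amino acids and of T3 and T4, was sparse in striatum, at 33.5 and 26.7 in PTU, 34.0, 41.1, 39.9 and 54.6 at 12 h and 35.2, 47.1, 33.3 and 35.1 at 24 h. It did not pass the test at 12 h (0.49 ± 0.24, adjusted p = 0.283) or at 24 h (0.32 ± 0.25, adjusted p = 0.713).

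Crym, whose product holds T3 in the cytosol, had 1114 and 1322 normalised counts in the PTU striatum. The 12 h libraries had 719, 704, 664 and 424 and the 24 h libraries 895, 177, 970 and 598. All 8 TH libraries were below both PTU libraries, and the lowest was again replicate 2 at 24 h. The spread among TH libraries was wide, and the differences of -0.96 ± 0.46 at 12 h and -0.88 ± 0.46 at 24 h (log2, SE) had adjusted p of 0.274 and 0.586. Without replicate 2 the 24 h group had 821 ± 197 (SD, n = 3) in place of 660 ± 360 (SD, n = 4), and the adjusted p at 12 h was 0.0242. Among the 10 libraries the lowest Crym level was in the library with the lowest projection neuron sum and the highest in a library with a sum of 55000. The sum of the 9 projection neuron markers was 37900 and 55000 in PTU and 21700 to 35300 at 12 h, with no overlap. At 24 h it was 2860 to 57700. The median log2 change of these 9 against PTU was -0.9 at 12 h and -0.37 at 24 h, with 0 called. The part of these neurons in the Crym difference was not tested.

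Ttr transcripts are made in the brain by the choroid plexus. Ttr had 23 and 22 counts in PTU, 51, 8, 1 and 12 at 12 h and 2, 10, 11 and 14 at 24 h. The 24 h libraries were below PTU, and those at 12 h lay on both sides of it. The highest value belonged to 12 h replicate 1, which also had the highest sum of 12 choroid plexus markers, 362. That sum was 219 to 308 in PTU, 128 to 362 at 12 h and 114 to 180 at 24 h, with 5 of the 12 markers tested and 0 called. The median log2 change of these 5 against PTU was 1.48 at 12 h and -0.34 at 24 h. The same 12 markers summed to 1870 to 5320 in the WAT libraries, so their sum is not particular to choroid plexus. The Ttr difference was -0.44 ± 0.88 at 12 h and -1.19 ± 0.94 at 24 h (log2, SE), with adjusted p of 0.820 and 0.721. Between 24 h and 12 h in striatum, 0 of the 8 genes and 0 of 15827 genes in all were called by edgeR (2309 had an unadjusted p under 0.05), and 1 of the 8 did not overlap, against 8.3% of all. The largest of these differences relative to its error was in Slco1c1, 0.30 ± 0.09 (log2, SE) higher at 24 h with an adjusted p of 0.169.

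**Figure D3:**
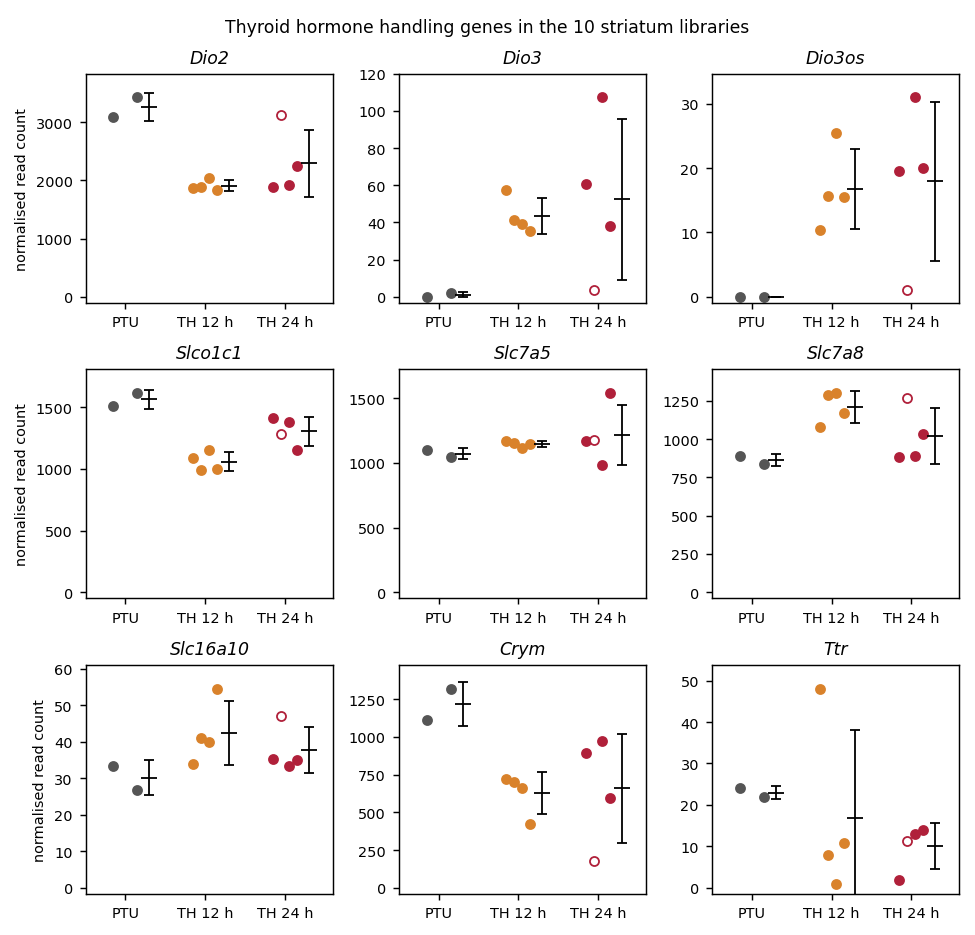
Normalised read count of 8 genes and of Dio3os in each of the 10 striatum libraries (points) with the group mean and SD beside them (bars), for PTU (n = 2), TH 12 h (n = 4) and TH 24 h (n = 4); the open circle is TH 24 h replicate 2. Dio3 and Dio3os lie at 1.98 or below in PTU and above 10 in every TH library but the open one, and Dio2, Slco1c1 and Crym are lower in all 12 h libraries than in PTU.

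In WAT, Dio2 rose at both times. The PTU libraries had 6.72, 5.99, 17.1 and 8.61 normalised counts, the 6 h libraries 348, 302, 496 and 465, and the 24 h libraries 113, 813, 602 and 70.8. The lowest TH library was above the highest PTU library at both times, and the 24 h group fell into a pair near 100 and a pair above 600. The increase was 5.33 ± 0.79 (log2, SE) at 6 h with an adjusted p of 0.00184 and 5.32 ± 0.80 at 24 h with an adjusted p of 0.000896. Dio2 was the only one of the 5 genes tested that was called at 6 h, where 7.23% of 17928 genes were called (4.18% higher and 3.05% lower). At 24 h Dio2 and Slc16a10 were called, against 17.1% of all genes (7.45% higher and 9.62% lower). Both Dio2 calls held in all 12 fits that left out 1 library, with adjusted p from 0.000524 to 0.00949 at 6 h and 0.000294 to 0.00499 at 24 h.

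Markers of brown adipocytes were also higher after TH, and the order of the libraries matched Dio2 in part. The sum of 6 such markers was 1650 to 3010 in PTU, 4210 to 8750 at 6 h and 7260 to 21100 at 24 h, and of the 5 tested 1 was called higher at 6 h and 3 at 24 h. At 24 h the sum was 17300 and 21100 in replicates 2 and 3, which had the high Dio2 counts, and 7260 and 7510 in replicates 1 and 4. At 6 h the sum was 4210, 5540, 8750 and 7710 in replicates 1 to 4, with the higher Dio2 counts in replicates 3 and 4. Across the times the order did not hold, since 6 h replicates 1 and 2 had lower sums than 24 h replicates 1 and 4 and more Dio2. Ucp1, the defining gene of thermogenic fat, had 2877, 11616, 12352 and 3321 normalised counts in the 24 h libraries, 1641 to 3941 at 6 h and 4.80 to 268 in PTU. Zic1, a brown fat marker, stayed at or under 18.3 in every WAT library. The 7 white adipocyte markers summed to 414000 to 521000 in PTU and 260000 to 365000 at 24 h, with 4 of 7 called lower. The part of the mix of adipocytes in the Dio2 increase was not tested.

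Dio3 was below the level for testing in WAT. It had 0 counts in all 4 PTU libraries, 0, 4, 3 and 3 at 6 h and 7, 5, 5 and 9 at 24 h. At 24 h every library was above PTU, and the group mean was at least 2.09-fold higher than the floor of 3 counts per library. At 6 h the mean lay under that floor, and no fold is given. With no filter on low counts the 24 h difference was called (adjusted p = 0.00257, edgeR), with 6.78% of the 37680 genes then tested. Dio1 had 5 reads in the 12 WAT libraries together.

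Slc16a10, the transporter of the 4 with the highest level per kb in the WAT of PTU animals, fell by 24 h. The PTU libraries had 441, 537.5, 529.7 and 440.2 normalised counts, the 6 h libraries 399, 413, 396 and 475, and the 24 h libraries 272, 257, 265 and 225. The 6 h libraries overlapped with PTU, and the 24 h libraries lay below all others. The change was -0.21 ± 0.10 (log2, SE) at 6 h with an adjusted p of 0.228, and -0.93 ± 0.11 at 24 h with an adjusted p of 0.000148. Between 24 h and 6 h it was -0.72 ± 0.11, with an adjusted p of 0.00249, the only call among the 5 genes where 7.41% of all genes were called (3.07% higher and 4.35% lower). Both calls held in all 12 fits that left out 1 library. The summed count of 5 stratified epithelium markers was 232 to 531 in PTU, 143 to 2940 at 6 h and 63.1 to 122 at 24 h. Of these 5, 2 were called lower at 24 h than in PTU and 3 lower than at 6 h. The part of the tissue mix in the WAT differences at 24 h was not tested.

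The other transporters did not pass the test in WAT. Slc7a5 had 57.6, 31.1, 84.8 and 83.6 normalised counts in PTU, 109, 117, 64.3 and 80.5 at 6 h and 105, 125, 106 and 90.7 at 24 h. The 24 h libraries did not overlap with PTU, and the difference was 0.73 ± 0.28 (log2, SE) with an adjusted p of 0.0961. Slc7a8 had 222, 294.5, 247 and 202 in PTU, 154, 194, 151 and 157 at 6 h and 190.0, 300.6, 147.5 and 196 at 24 h. All 6 h libraries were below PTU, with a difference of -0.56 ± 0.20 and an adjusted p of 0.107, which was 0.0493 without 24 h replicate 2. Groups did not overlap for 2 of the 5 genes at 6 h (13.9% of all genes), 3 at 24 h (19.3%) and 1 between the times (21.8%). Crym was sparse, at 10.6 to 29.5 in PTU, 2.14 to 16.9 at 6 h and 7.43 to 22.3 at 24 h, and its groups overlapped. Slco1c1 had at most 3.36 normalised counts in a WAT library. Ttr had 5 and 19 counts in PTU replicates 2 and 3 and 0 in the other two, and 3 counts in the 8 TH libraries together.

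**Figure D4:**
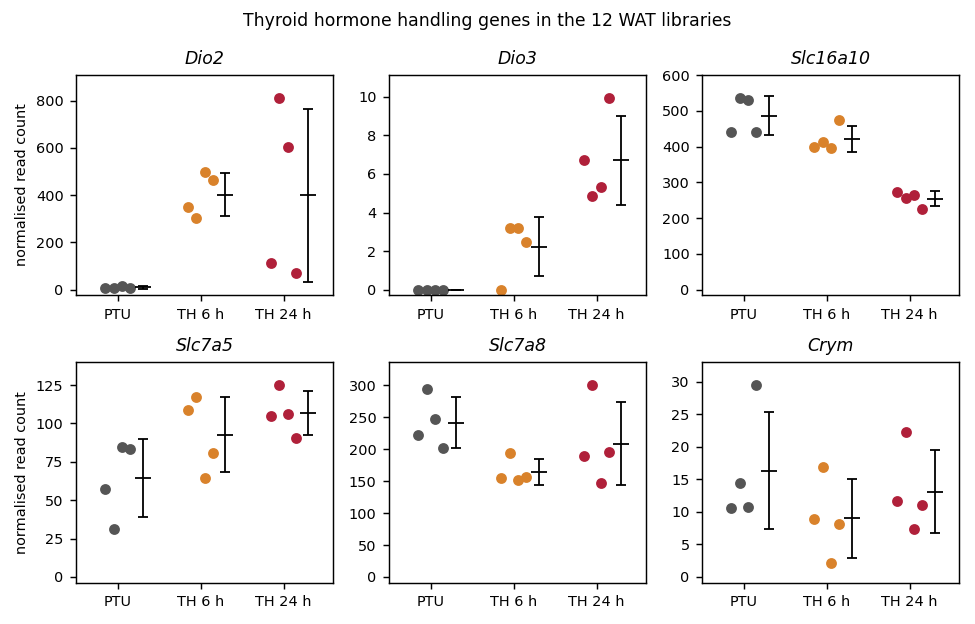
Normalised read count of 6 genes in each of the 12 WAT libraries (points) with the group mean and SD beside them (bars), for PTU, TH 6 h and TH 24 h (n = 4 each). Dio2 lies at 17.1 or below in PTU and between 70.8 and 813 after TH, and Slc16a10 lies between 225 and 272 at 24 h, below the other 8 libraries.

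The response at 24 h, the one time after TH that both tissues share, differed between the tissues for Dio2 and Slc16a10 out of the 5 genes tested in both. This was tested as an interaction over 12766 genes, of which 5.23% were called (1.71% with a higher and 3.52% with a lower change in WAT). The change of Dio2 from PTU was 5.82 ± 0.85 (log2, SE) higher in WAT than in striatum, with an adjusted p of 0.000374. Dio2 thus rose in WAT while its striatum libraries lay within or below the PTU range. The change of Slc16a10 was lower in WAT by -1.26 ± 0.24, with an adjusted p of 0.00398, and this call was lost without striatum PTU replicate 6 (-1.10, adjusted p = 0.0603). Slc7a5 (0.54 ± 0.32, adjusted p = 0.356), Slc7a8 (-0.45 ± 0.26, adjusted p = 0.351) and Crym (0.64 ± 0.79, adjusted p = 0.696) did not pass. Dio3 was below the count minimum for this test, and with no filter its difference between tissues was -0.24 (adjusted p = 0.849, edgeR).

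**Figure D5:**
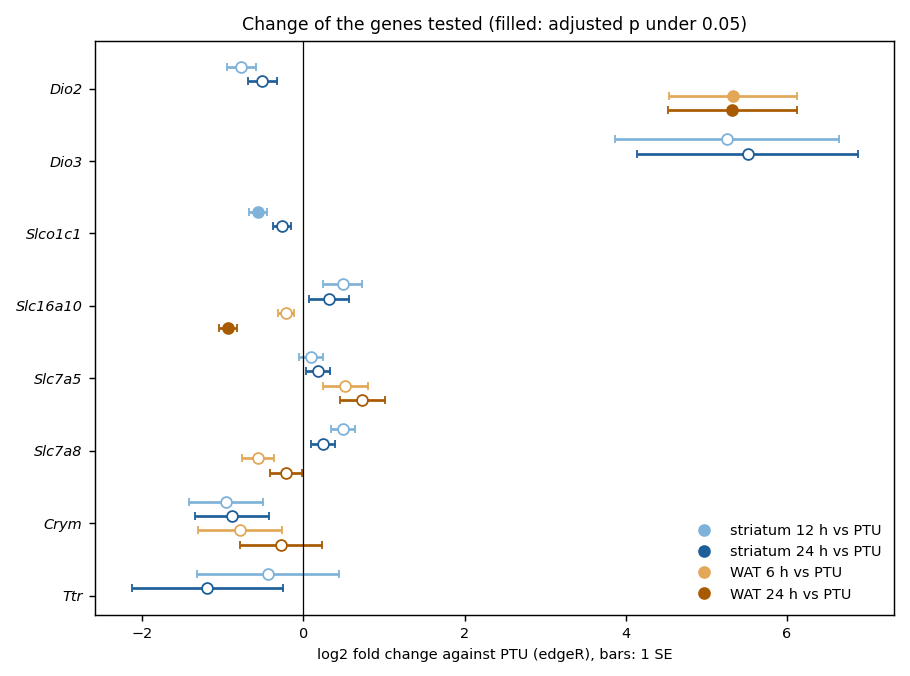
Log2 fold change against PTU (horizontal axis, edgeR) with 1 SE (bars) for the genes tested, at 12 h and 24 h in striatum (blue) and at 6 h and 24 h in WAT (brown); filled points have an adjusted p under 0.05. The filled points are Dio2 in WAT at both times (5.33 and 5.32), Slc16a10 in WAT at 24 h (-0.93) and Slco1c1 in striatum at 12 h (-0.56).

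A further 33 genes of hormone handling were counted as lists: other transporters, plasma carriers, conjugating and deiodinating enzymes, selenoprotein synthesis, turnover of the type 2 enzyme, and Dio3os. In striatum 20 were tested and 0 were called at 12 h, at 24 h or between these times by edgeR (2, 1 and 1 without 24 h replicate 2, with 1257, 115 and 78 of 15857 genes in all), with medians of -0.03 and 0.04 (log2) against PTU where all genes had 0.0076 and 0.0164. In WAT 22 were tested. At 6 h 2 rose and 2 fell, where 4.18% and 3.05% of all genes did. Those that rose were Usp33, a deubiquitinase of the type 2 enzyme (0.40 ± 0.08, adjusted p = 0.0141), and Sepsecs, which makes selenocysteine (0.43 ± 0.10, adjusted p = 0.0252). Those that fell were Ugt1a1 (-0.87 ± 0.18, adjusted p = 0.0137) and Ugt1a6a (-0.85 ± 0.23, adjusted p = 0.0405), glucuronosyltransferases that conjugate the hormone. The 2 share exons with each other and other Ugt1a genes, and their counts cannot be assigned to 1 of them. Over the 12 fits that left out 1 library, Usp33 and Ugt1a1 were called in 12, Sepsecs in 10 (not without 6 h replicate 1 or 4) and Ugt1a6a in 3 (those without PTU replicate 1, 3 or 4). Without WAT PTU replicate 1, 8 genes of the list were called at 6 h, with 1898 of 17874 genes in all, and without 6 h replicate 1 there were 2, with 869 of 17985. Of the genes of the list called at 6 h or 24 h, Usp33, Sult1a1, Slc7a7, Slc43a2, Ugt1a1 and Ugt1a6a overlap genes on the opposite strand.

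At 24 h in WAT 4 of the 22 rose and 4 fell, where 7.45% and 9.62% of all genes did. All 4 that rose were among the 9 other transporters tested, led by Slc7a6, another amino acid transporter light chain, with 398 ± 66.5 normalised counts in PTU, 491 ± 21.6 at 6 h and 782 ± 58.4 at 24 h (SD, n = 4). Its change at 24 h was 0.98 ± 0.12 (log2, SE), with an adjusted p of 0.000186. Slco4a1 rose by 1.52 ± 0.35 (adjusted p = 0.0119). Those that fell included all 3 conjugating enzymes tested, Ugt1a1 and Ugt1a6a (both -1.53, adjusted p = 0.000212 and 0.000933) and the sulfotransferase Sult1a1 (-1.06 ± 0.21, adjusted p = 0.00493). These 5 calls held in all 12 fits that left out 1 library, whereas the other 2 that rose, Slc7a7 and Slc43a2, were called in 7 of the 12 each. The other gene that fell was Alb, of the plasma carriers (-0.84), which was called in all 12 fits. The number called in these fits ran from 6 to 13 in place of 8, with 13 without PTU replicate 1, where 4264 of 17874 genes were called in all. None of the 6 selenoprotein synthesis genes was called at 24 h by edgeR with every library. Between 24 h and 6 h Slc7a6 rose (0.67, adjusted p = 0.00583), and Usp33 (-0.50, adjusted p = 0.00527) and Ugt1a1 (-0.65, adjusted p = 0.0498) fell, the last in only 3 of the 12 fits that left out 1 library. Without PTU replicate 1 there were 5 calls in place of 3, with 2038 of 17874 genes in all. Of 18 tested between the tissues, where 5.23% of all genes were called, Slc7a6 was called, with a change 0.93 ± 0.18 higher in WAT (adjusted p = 0.00412), and 3 genes were called without WAT PTU replicate 1 (1155 of 12746 in all) and 2 without WAT 24 h replicate 2 (636 of 12771).

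For the genes called in a tissue, the rows with the most similar pattern were ranked by Pearson correlation of log2 CPM over its libraries, as a description. They were Ktn1 (0.961), Psip1 (0.951) and Gtf2h2 (0.945) for Slco1c1 over the 10 striatum libraries. For Dio2 over the 12 WAT libraries they were Zfp809 (0.964), Npc1 (0.955) and Apex2 (0.955). For Slc16a10 in WAT they were Plcb1 (0.969), Rnf141 (0.967) and Cpd (0.967). The points share library, depth and group.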

How the data were processed

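RNA was prepared with Trizol (WAT) or RNeasy columns (striatum) and sequenced as Lexogen SENSE total RNA libraries. The authors deposited raw counts per gene symbol, 1 table per tissue, made by aligning reads to GRCm38 with Bowtie (Bowtie2 2.2.6.2 in the submitters' processing notes), removing alignments of quality below 10 and counting with htseqcount. Annotation release and strand setting are not given in the sources used here. The 2 tables differed in their number of rows, 55341 for striatum and 47643 for WAT. In WAT, 235 pairs of rows (mean above 100) agreed within 2% in every library, none of them with a gene studied here. A striatum count of such pairs is not available, so the pairs cannot show if the tables were made differently. Rows whose symbol had become a date (14 in striatum, 15 in WAT, at most 0.201% and 0.0825% of a library) were left out.

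Counts were fitted per tissue with its 3 groups in edgeR 4.0.16 (R 4.3.3, limma 3.58.1), with TMM scaling, genes with a mean normalised count above 10, the two-sided quasi-likelihood F test and Benjamini-Hochberg adjustment over all genes tested in a comparison. The call rule was an adjusted p below 0.05 without a fold limit. SE was taken as log2 change over the square root of F. The tissue difference was an interaction in 1 fit of 22 libraries with symbols shared by both tables. Levels per kb used merged exons of GENCODE M21. Ratios of low counts have exact 95% intervals. The correlations used a prior count of 2. The self-test used simulated data. Replicate libraries differed beyond counting noise (chi-square per degree of freedom from 3.68 to 95.2).

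Named genes were the 9 genes in every comparison, the called genes of the further lists (at most the 5 of smallest adjusted p, but all of them for WAT at 24 h) and Hr and Klf9. The genes and lists were chosen with earlier results of these data known, so their counts are descriptions. Alternatives were DESeq2 1.42.0, its size factors, no filter on low counts, the compared groups alone, each library left out, a term for Y-linked counts (summed count of 4 genes above 100), a replicate block and WAT without copied rows.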

Additional observations from a re-analysis of the deposited data

Results flagged for a closer look

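The response at 24 h differed between WAT and striatum for Dio2, by 5.82 on the log2 scale, and for Slc16a10, by -1.26, in the test of the difference itself. In 42 groups of 4 libraries, 6 held a highest or lowest library far from the other three, and chance gives about 1 in 20 groups of continuous values. Slc16a10 had 47.1 normalised counts in striatum TH 24 h replicate 2, the library with few projection neuron counts, against at most 35.2 in the other three. Slc7a8 had 194 in WAT TH 6 h replicate 2, against at most 157 in the other three. The other 4 were single libraries with 1 or 2 reads beside 3 libraries at 0, which such a rule always picks out and to which that chance rate does not apply: Dio1 with 0.902 in WAT PTU replicate 3 and 0.804 in WAT TH 6 h replicate 2, and Ttr with 1.64 in WAT TH 6 h replicate 4 and 0.970 in WAT TH 24 h replicate 2.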

How the results depend on the processing

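In striatum at 12 h, where 1 gene and 0.960% of all genes were called, the number called was 3 with no filter on low counts (Dio2, Dio3 and Slco1c1, with 1.01% of all genes called), 3 in DESeq2 (Dio2, Slc7a8 and Slco1c1, with 5.43%), 5 with the 2 compared groups alone (9.05%) and 0 with the term for Y-linked counts. At 24 h, where 0 were called, Dio3 alone was called, 1 gene, with no filter (0.341% of all genes) and in DESeq2 (1.28%). Leaving out 1 library gave 0 to 5 genes at 12 h, 0 to 2 at 24 h and 0 between the times, and 1 to 2, 2 and 1 genes in WAT at 6 h, at 24 h and between the times, and 1 to 2 between the tissues. The cause was not tested.

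Differences between 24 h and 12 h in striatum changed sign with the term for Y-linked counts for Dio3 (-0.21), Slc16a10 (0.12) and Crym (-0.12). With the replicate number as a block, Crym was -0.10, and where the block could be fitted (24 h against 12 h in striatum, and WAT) it changed the call of none of the 9 genes. Over all genes the block gave 7 calls in place of 0 in striatum, and 886, 2312 and 778 in place of 1296, 3060 and 1329 in WAT at 6 h, at 24 h and between the times, with 2 of the 22 further handling genes in place of 4 at 6 h. The residual correlation of same-numbered libraries ranged over -0.395 to 0.267 across 6 striatum pairs and over -0.472 to 0.394 across 12 WAT pairs. The correlation of libraries of unlike number was not computed, so these values cannot decide if same-numbered libraries deviated together. Leaving out 1 library turned the sign of uncalled differences, with ranges between 24 h and 12 h of -0.32 to 0.63 (Dio3), -0.17 to 0.37 (Crym), -0.05 to 0.18 (Slc7a5) and -1.16 to 0.60 (Ttr) in striatum, -0.64 to 0.34 for Dio2 between 24 h and 6 h and -0.67 to 0.16 for Crym at 24 h in WAT. Of the other values under alternatives that keep every library, 223 kept direction and side of the threshold, 10 passed it newly and 1 no longer passed. The striatum control group had 2 libraries. Dio1 and, in WAT, Slco1c1 and Ttr are limited by depth.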
